A study of Mus musculus with 20 samples.

Results

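Collagens are triple-helical matrix proteins and laminins are three-armed glycoproteins, and each molecule is assembled from separate chains with a gene of their own. The chains described here are all genes whose platform symbol is Col, a number, a and a number, or Lama, Lamb or Lamc and a number. They came to 52 of the 18194 genes measured, 42 collagen and 10 laminin chains, each read from its brightest probe set. They comprise 6 collagen IV chains, 10 laminin chains, 11 fibrillar, 9 fibril-associated, 5 collagen VI, 3 short-chain network-forming and 4 transmembrane collagen chains, collagens XV and XVIII, and 2 others. Col21a1, Col6a6 and Col28a1 were not analysed here.

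The study asked how cortical gene expression differs in experimental autoimmune encephalomyelitis (EAE), a mouse model of the inflammation of multiple sclerosis that is induced by immunization against myelin. Motor and sensory cortex of 10 female C57Bl6 mice were measured on 20 Affymetrix arrays, giving 4 groups: motor cortex of 6 EAE mice, sensory cortex of the same 6 mice, and motor and sensory cortex of 4 healthy mice. EAE mice were immunized at 8 to 12 weeks of age with a peptide of the myelin protein MOG, 100 µg in both flanks and 50 µg near the tail, and were given pertussis toxin, 400 ng each on day 0 and day 3. Their average clinical grades ran from 2.50 to 3.50, with paraplegia or monoplegia. The healthy mice were of the same strain, carried the same age label of 8 to 12 weeks and shared the cages. The labels name no modified allele in any mouse and no mock injection of the healthy ones, so the effects of antigen and toxin cannot be told apart. Tissue was taken on day 18 to 21 in one label and day 21 in another, after perfusion, so the values are those of whole cortical pieces with their vessels and any attached pia.

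Collagen IV and laminins are the scaffolds of the basement membrane, the thin sheet that lies under endothelium, around pericytes and beneath the astrocyte endfeet. In EAE, leukocytes cross the endothelial and the glial basement membrane on their way into the tissue. Fibrillar collagens form the fibres of connective tissue and in brain are known mainly from meninges and the adventitia of larger vessels, while some chains are also made by neurons. In whole tissue, fewer cells of a type and less RNA per cell cannot be told apart.

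Array medians were 8.22 to 8.32 and the correlation between arrays of a group was 0.988 to 0.998, with no 2 arrays identical. Both cohorts held both conditions. The second of 2 chip processing days held motor cortex of healthy mouse 4 and sensory cortex of healthy mouse 1 only. Markers of cortical neurons were present in every array, with a mean log2 level over 11 excitatory and layer markers of 11.29 to 11.69. Of the 52 chains, 10 had a mean level below 7.44, the lower quartile of all genes. The labels state separate animals, and all values below are log2 array signals, which are compared within a gene and not between genes.

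Among the 11 fibrillar chains 3 differed by region in both healthy and EAE mice. Col11a1, Col24a1 and Col5a1 were higher in sensory than in motor cortex in every mouse, healthy or with EAE, and within each condition their ranges in the regions did not overlap. The class as a whole did not lean this way in healthy mice, where 6 of the 11 fibrillar chains were above 0 and 5 below 0 (motor minus sensory, median 0.01); in EAE mice 2 were above and 9 below 0 (median -0.09). Col11a1 and Col5a1 encode chains of the minor fibrillar collagens that control fibril diameter, and Col24a1 a fibrillar chain known from bone and cornea. Col26a1, a short collagen outside the main classes, stood the same way. Among the basement membrane chains no such difference passed the test in healthy mice.

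The stretches upstream of the start sites of the 3 fibrillar chains, and of Col25a1, described further on, are shown because the regional and EAE results turn on these chains. Each is 250 bases of RefSeq sequence ending at the last base before the start, on build GRCm38.p6, read along the plus strand of the chromosome: Col11a1 from chr3:114030290-114030539, Col24a1 from chr3:145292222-145292471, Col5a1 from chr2:27886175-27886424 and Col25a1 from chr3:130180595-130180844. Capitals mark matches, on either strand, to AGGTCA (a nuclear receptor half-site), GGGCGG (the GC box), CCAAT, and ATATATTATGCTAATA.
Col11a1: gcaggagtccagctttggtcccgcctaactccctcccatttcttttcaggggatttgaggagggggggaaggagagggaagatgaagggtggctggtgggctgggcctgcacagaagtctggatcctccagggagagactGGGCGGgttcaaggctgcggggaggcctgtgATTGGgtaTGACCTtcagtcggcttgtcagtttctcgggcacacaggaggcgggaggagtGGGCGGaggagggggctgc
Col24a1: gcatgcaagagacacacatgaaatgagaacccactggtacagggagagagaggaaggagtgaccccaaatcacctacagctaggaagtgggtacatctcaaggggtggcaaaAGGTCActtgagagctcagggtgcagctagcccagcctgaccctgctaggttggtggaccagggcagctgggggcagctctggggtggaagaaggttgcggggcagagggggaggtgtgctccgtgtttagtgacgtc
Col5a1: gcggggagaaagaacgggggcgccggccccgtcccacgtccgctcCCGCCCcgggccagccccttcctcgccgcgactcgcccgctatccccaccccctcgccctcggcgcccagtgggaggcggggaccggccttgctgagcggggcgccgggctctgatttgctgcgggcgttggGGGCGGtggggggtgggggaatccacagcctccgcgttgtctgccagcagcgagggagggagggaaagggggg
Col25a1: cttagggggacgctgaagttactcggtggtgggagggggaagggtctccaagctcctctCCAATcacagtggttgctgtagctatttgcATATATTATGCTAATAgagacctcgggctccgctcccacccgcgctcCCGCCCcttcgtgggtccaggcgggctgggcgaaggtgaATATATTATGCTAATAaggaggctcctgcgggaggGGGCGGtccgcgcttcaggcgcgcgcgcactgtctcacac

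RefSeq windows were found for 38 of the 52 chains, as 42 windows. AGGTCA was in 8 of these 42 windows (19.0%) against 14.0% of all 32841 windows, and among the 4 shown it was in Col11a1, 71 bases before the start on the opposite strand, and in Col24a1, 138 bases before it. GGGCGG was in 23 of 42 windows (54.8%) against 32.7% of all, and CCAAT in 14 (33.3%) against 33.9%. The 16-base run ATATATTATGCTAATA is the longest stretch that repeats within the Col25a1 window, at 161 and again at 75 bases before the start. It was taken from that window, so its presence there was fixed in advance. The 1 window of all 32841 (0.00304%) that holds it is the Col25a1 window itself. The motifs were picked after the windows had been read, and a match describes letters only.

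In healthy mice Col11a1 stood at 7.88, 8.15, 7.99 and 8.16 in motor cortex and at 8.87, 9.11, 9.22 and 9.39 in sensory cortex of mice 1 to 4. In EAE the lowest, median and highest values were 7.65, 7.84 and 8.13 in motor and 8.59, 8.95 and 9.39 in sensory cortex. The lowest sensory array of either condition lay above the highest motor array. Motor minus sensory was -1.10 (SE 0.15, n = 4, limma adjusted p = 0.0012) in healthy mice and -1.09 (SE 0.12, n = 6, limma adjusted p = 0.000147) in EAE mice. The gene's other probe set, which is dimmer, gave -0.85 and -1.05.

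Col24a1 was measured at 6.31, 6.82, 6.43 and 6.43 in healthy motor cortex and at 7.77, 8.05, 7.78 and 7.94 in healthy sensory cortex. EAE motor values had a lowest of 5.90, a median of 6.26 and a highest of 6.39, and EAE sensory values 6.49, 7.51 and 7.91. Sensory cortex was the higher region in all 10 mice, with a motor minus sensory value as near 0 as -0.20 in EAE mouse 3. The difference, motor minus sensory, was -1.39 (SE 0.17, limma adjusted p = 0.000746) in healthy and -1.12 (SE 0.14, limma adjusted p = 0.000369) in EAE mice. The EAE sensory values of 6.49 in mouse 3 and 6.83 in mouse 4 were the lowest of that region. The single probe set of Col24a1 is dim, with a mean level of 6.94 that is below the lower quartile of all genes, so the filter on low means removed it.

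Col5a1 ran at 9.34, 9.60, 9.45 and 9.30 in healthy motor and at 9.94, 10.00, 10.11 and 10.03 in healthy sensory cortex. EAE values were 9.31, 9.69 and 9.72 (lowest, median, highest) in motor and 9.88, 10.22 and 10.37 in sensory cortex. No motor array reached the lowest sensory one, and motor minus sensory was -0.60 (SE 0.08, limma adjusted p = 0.00123) in healthy and -0.53 (SE 0.07, limma adjusted p = 0.000407) in EAE mice. Its other 2 probe sets gave -0.53 and -0.51 in healthy and -0.41 and -0.50 in EAE mice.

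Col26a1 was 7.68, 7.46, 7.71 and 7.77 in healthy motor cortex and 7.98, 8.01, 8.15 and 8.15 in healthy sensory cortex. Its regional difference was -0.42 (SE 0.06, limma adjusted p = 0.00198) in healthy and -0.40 (SE 0.05, limma adjusted p = 0.000377) in EAE mice, and the other probe set gave -0.21 and -0.26. Within each condition the regions of Col26a1 did not overlap.

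Without the 2 healthy mice with an array from the second processing day the healthy differences were -1.09 for Col11a1, -1.29 for Col24a1 and -0.53 for Col5a1, with limma adjusted p = 0.0715, 0.0669 and 0.102 in the 2 mice left, while Col26a1 kept its call. Markers of cortical layers moved with region as well. Of 11 excitatory and layer markers, 3 were called higher and 2 lower in healthy motor cortex, and 3 and 3 in EAE motor cortex. The shares over all genes were 2.29% and 1.65% in healthy and 3.59% and 3.11% in EAE mice. Rorb, a transcription factor of layer IV neurons, was lower in motor cortex by -1.12 (healthy) and -1.21 (EAE), and Fezf2, which marks deep-layer projection neurons, was higher by 0.70 and 0.74. The list's mean level was 11.31 to 11.54 in healthy motor, 11.55 to 11.65 in healthy sensory, 11.29 to 11.41 in EAE motor and 11.34 to 11.69 in EAE sensory cortex. The part of layer makeup in the collagen differences was not tested.

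**Figure D1:**
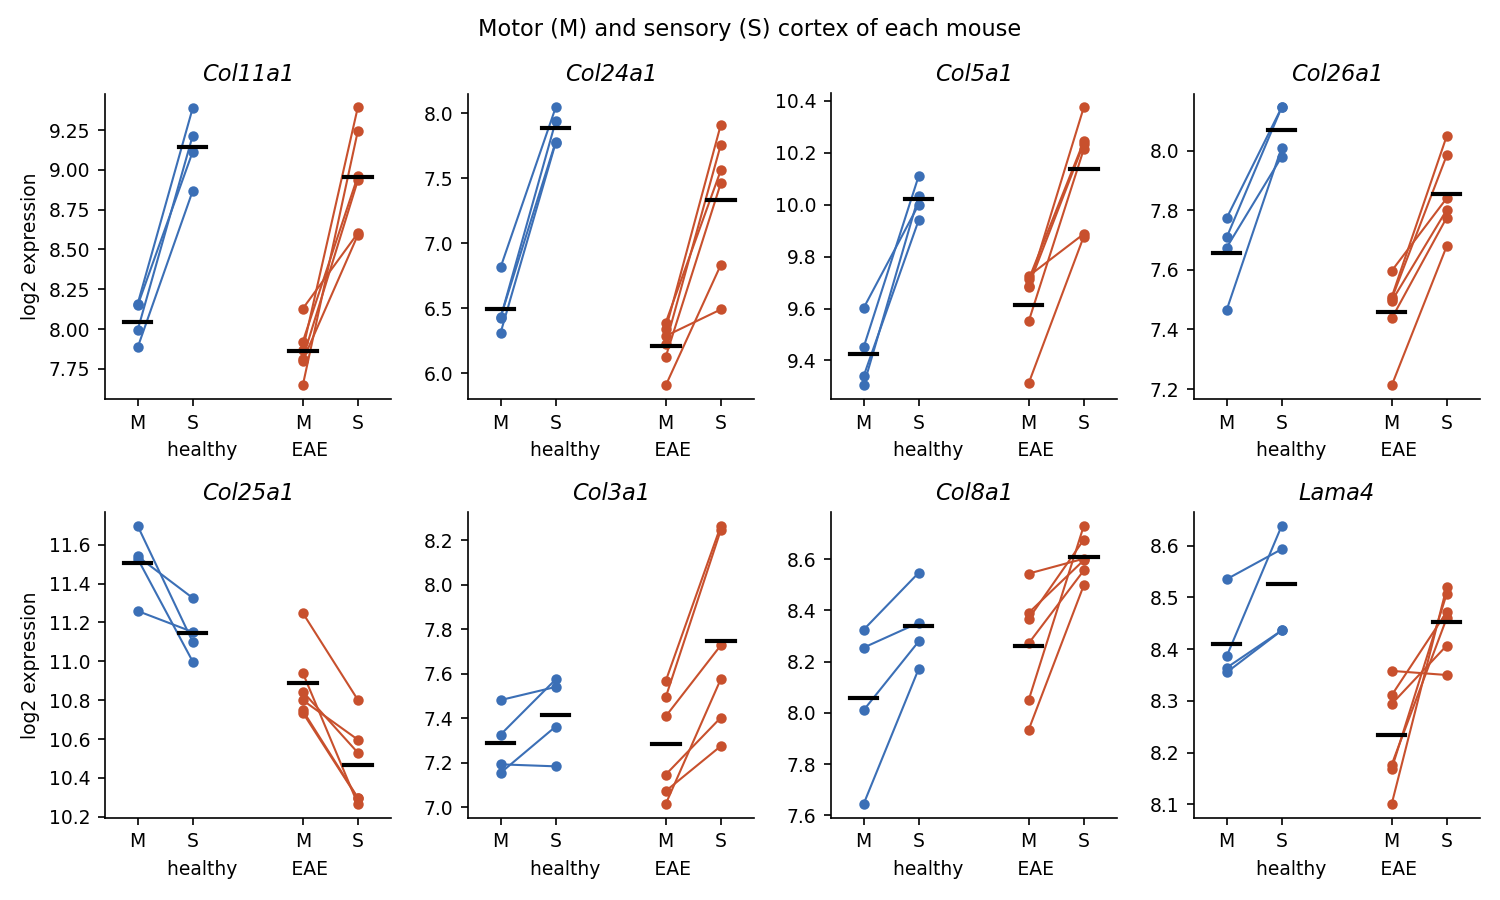
Log2 array values of 8 chains in motor (M) and sensory (S) cortex, with a line joining the arrays of a mouse (blue, 4 healthy mice; orange, 6 EAE mice) and a black bar at the group mean; each panel has its own vertical range. Every line of Col11a1, Col24a1, Col5a1 and Col26a1 runs up from motor to sensory cortex, and every line of Col25a1 runs down.

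Most chains showed no regional difference that passed the test. In healthy mice 6 of 52 chains (11.5%) passed the test for a regional difference, against 3.94% of all genes (percent called over 18194 genes), with 2 higher (2.29% of all genes) and 4 lower (1.65%) in motor cortex. In EAE mice 10 of 52 (19.2%) passed, 2 higher (3.59% of all genes) and 8 lower (3.11%) in motor cortex, against 6.71% of all genes. The median difference over the chains was 0.01 in healthy and -0.02 in EAE mice, near the 0.02 and 0.01 over all genes. Regions did not overlap for 8 chains (15.4%) in healthy and 5 (9.62%) in EAE mice, against 10% and 2.84% of all genes.

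Of the 4 transmembrane chains 2 were called higher in motor cortex in healthy mice and 1 in EAE mice. Col25a1, a transmembrane collagen made by neurons and known as a component of amyloid plaques, was higher in motor cortex by 0.36 (SE 0.09, limma adjusted p = 0.0378) in healthy and 0.42 (SE 0.07, limma adjusted p = 0.0031) in EAE mice, in 4 of 4 and 6 of 6 mice. Its dimmer probe set showed no such difference, at -0.01 and -0.03, and the healthy call was lost in 8 of 16 alternatives, with an adjusted p of up to 0.246. Col17a1, a hemidesmosome collagen of epithelia, was dim: 6.06, 5.90, 5.92 and 6.39 in healthy motor and 5.53, 5.49, 5.44 and 5.39 in healthy sensory cortex. These ranges do not overlap, and motor minus sensory for Col17a1 was 0.60 (SE 0.12, limma adjusted p = 0.0156) in healthy and 0.26 (SE 0.10, limma adjusted p = 0.174) in EAE mice. The other transmembrane chains, Col13a1 and Col23a1, stood at 0.01 and 0.01 in healthy and 0.01 and -0.10 in EAE mice. Without healthy mouse 1, 3 or 4 the healthy Col17a1 value was 0.63, 0.65 or 0.47 with adjusted p = 0.0672, 0.0587 or 0.0806.

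In EAE mice 5 further chains passed the regional test that had not in healthy mice. Col3a1, the main fibrillar partner of collagen I in soft connective tissue, was 7.01, 7.28 and 7.57 (lowest, median, highest) in EAE motor and 7.27, 7.65 and 8.26 in EAE sensory cortex. Sensory was higher in all 6 EAE mice, although the ranges overlap, and the difference was -0.46 (SE 0.07, limma adjusted p = 0.00217) against -0.13 (SE 0.09, limma adjusted p = 0.618) in healthy mice. The probe set used for Col3a1 has a mean level of 7.45, close to the lower quartile of all genes (7.44). A second, dimmer probe set of Col3a1 gave -0.05 in EAE mice.

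Col8a1, a short-chain collagen of vessel walls, was lower in EAE motor cortex by -0.35 (SE 0.08, limma adjusted p = 0.0155) and stood at -0.28 (limma adjusted p = 0.152) in healthy mice. Without EAE mouse 1 or 4 the Col8a1 value was -0.31 or -0.28 with adjusted p = 0.0503 or 0.0533. Lama1, the laminin chain of the pial basement membrane, was -0.21 (SE 0.05, limma adjusted p = 0.0174) in EAE and -0.07 in healthy mice. Lama4, the laminin chain of endothelial basement membranes, was -0.22 (SE 0.06, limma adjusted p = 0.0337) and -0.12. Lamb3, a chain of an epithelial laminin, was higher in motor cortex by 0.21 (SE 0.05, limma adjusted p = 0.0207) in EAE mice and 0.21 (limma adjusted p = 0.0835) in healthy mice.

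The 3 laminin calls did not hold in every alternative. Lama1 and Lamb3 are dim, with mean levels of 7.33 and 7.06, below the lower quartile of all genes. The filter on low means therefore removed both. Both also lost the call with a trended prior and without the mouse block. Without EAE mouse 1 the adjusted p of Lama1 was 0.0528, and Lama4 lost its call without EAE mouse 1, 2 or 5 or healthy mouse 2 or 3, with an adjusted p of up to 0.11. Lamb3 lost it without EAE mouse 2, 4 or 6, with an adjusted p of up to 0.0752. The other probe set of Lama4 gave 0.05 in EAE mice. None of these chains differed between healthy and EAE mice in the size of its regional difference after adjustment: the test of that difference called 0 of 18194 genes with limma, 465 (2.56%) at an unadjusted p under 0.05, among them 2 of the 52 chains. Those were Col3a1, at -0.34 (95% interval -0.59 to -0.09, unadjusted p = 0.0129, limma adjusted p = 0.9998), and Col17a1, at -0.35 (-0.69 to -0.003, unadjusted p = 0.0485, limma adjusted p = 0.9998).

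Fibroblast and meningeal markers moved with the sensory excess of Col3a1 in EAE mice. For the marker counts that follow, 3.11% of all genes were called lower in motor cortex in EAE and 1.65% in healthy mice. All 12 listed markers had a motor minus sensory value below 0 in EAE mice, with a median of -0.22, and 3 were called: Igfbp2 at -0.68, Igf2 at -0.55 and Dcn (decorin) at -0.46. In healthy mice 11 of the 12 were below 0, with a median of -0.06, and none was called with limma, 1 being below an unadjusted p of 0.05. The mean level of the list was 8.92 to 9.68 in EAE motor, 9.31 to 9.97 in EAE sensory, 9.19 to 9.52 in healthy motor and 9.24 to 9.61 in healthy sensory cortex. The part of attached meninges in these values was not tested. Endothelial, mural cell and astrocyte markers moved the same way beside Col8a1 and Lama4. Of 12 endothelial markers 1 lay above 0 in EAE mice (median -0.07), and Esam was called at -0.15. In healthy mice 3 lay above 0 (median -0.06) and none was called with limma, 3 being below an unadjusted p of 0.05. The part of endothelial content was not tested. In EAE mice 12 of 12 mural markers were below 0 (median -0.12) and 3 were called, Tagln at -0.35, Acta2 at -0.26 and Vtn at -0.21; in healthy mice 10 were below 0 (median -0.06) and none was called with limma, 2 being below an unadjusted p of 0.05. The mean level of the mural list was 9.00 to 9.11 in EAE motor, 9.13 to 9.28 in EAE sensory, 9.09 to 9.18 in healthy motor and 9.15 to 9.23 in healthy sensory cortex. Of 8 astrocyte markers 8 were below 0 in EAE mice (median -0.14), with Gfap at -0.72 and Aqp4 at -0.25 called, and 5 in healthy mice (median -0.05), with Gfap at -0.41 called. Their mean level was 12.30 to 12.53 in EAE motor, 12.47 to 12.75 in EAE sensory, 12.35 to 12.46 in healthy motor and 12.45 to 12.55 in healthy sensory cortex, and their part was not tested either.

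**Figure D2:**
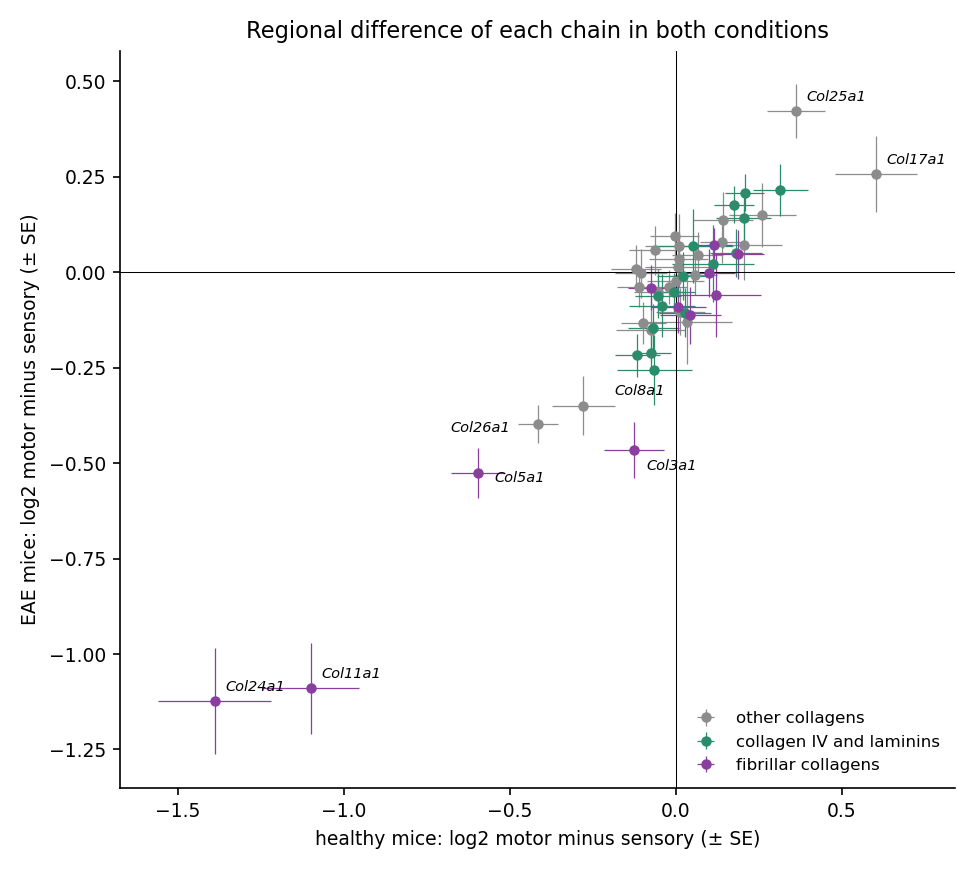
Motor minus sensory difference (log2) of each of the 52 chains in healthy mice (horizontal axis, n = 4) against EAE mice (vertical axis, n = 6), with limma SE bars; purple, fibrillar; green, collagen IV and laminin; grey, other collagens. Labels mark the non-basement-membrane chains called in either condition: Col11a1 and Col24a1 lie below -1 on both axes, and Col3a1 lies at -0.13 and -0.46.

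Of the 16 basement membrane chains, 0 passed the regional test in healthy mice and 3, the laminin chains above, in EAE mice, by limma; at an unadjusted p under 0.05 there were 5 and 7, where 14.9% and 18.8% of all genes were. None of the 6 collagen IV chains passed the test in either condition, with differences of -0.07 to 0.18 in healthy and -0.26 to 0.18 in EAE mice. Col4a2, which pairs with Col4a1 in the collagen IV of most basement membranes, was higher in motor cortex in all 10 mice, at 0.18 (SE 0.06, limma adjusted p = 0.156) in healthy and 0.18 (SE 0.05, limma adjusted p = 0.0502) in EAE mice. Col4a1 stood at 0.02 and -0.01. Lamb1, a chain of most vascular laminins, was also higher in motor cortex in all 10 mice, at 0.31 (SE 0.08, limma adjusted p = 0.0572) and 0.22 (SE 0.07, limma adjusted p = 0.0854), and did not pass.

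Between EAE and healthy mice the chains as a group showed few changes. In motor cortex 2 of 52 chains (3.85%) were called, both lower in EAE, against 2.25% of all genes (0.517% higher and 1.74% lower). In sensory cortex 1 of 52 (1.92%) was called, lower in EAE, against 2.41% of all genes (0.901% higher and 1.51% lower). With both regions of a mouse averaged, 3 of 52 (5.77%) were called, 1 higher and 2 lower, against 7.87% of all genes (2.23% higher and 5.64% lower). At an unadjusted p under 0.05 there were 13, 12 and 14 chains in motor cortex, sensory cortex and both, or 25%, 23.1% and 26.9%, against 15.9%, 18.5% and 25.9% of all genes. The called chains were Col25a1 and Lamc1, which were lower, and Col5a3, which was higher. Of all genes 94 rose and 316 fell in motor cortex, 164 and 274 in sensory cortex and 405 and 1026 over both, and after quantile normalization 120 and 227, 193 and 182, and 450 and 603.

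The median EAE difference over the 52 chains was -0.01 in motor and 0.06 in sensory cortex, where all genes had -0.01 and 0.00. The 16 basement membrane chains had medians of -0.04 and 0.06 and the 11 fibrillar chains -0.01 and 0.11. EAE lay wholly below healthy for 3 chains in motor cortex (Col25a1, Lamc1 and Col11a2) and 2 in sensory cortex (Col25a1 and Col15a1), and wholly above for 0 in both. Of all genes 4.19% and 4.04% lay wholly below and 1.48% and 2.45% wholly above.

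**Figure D3:**
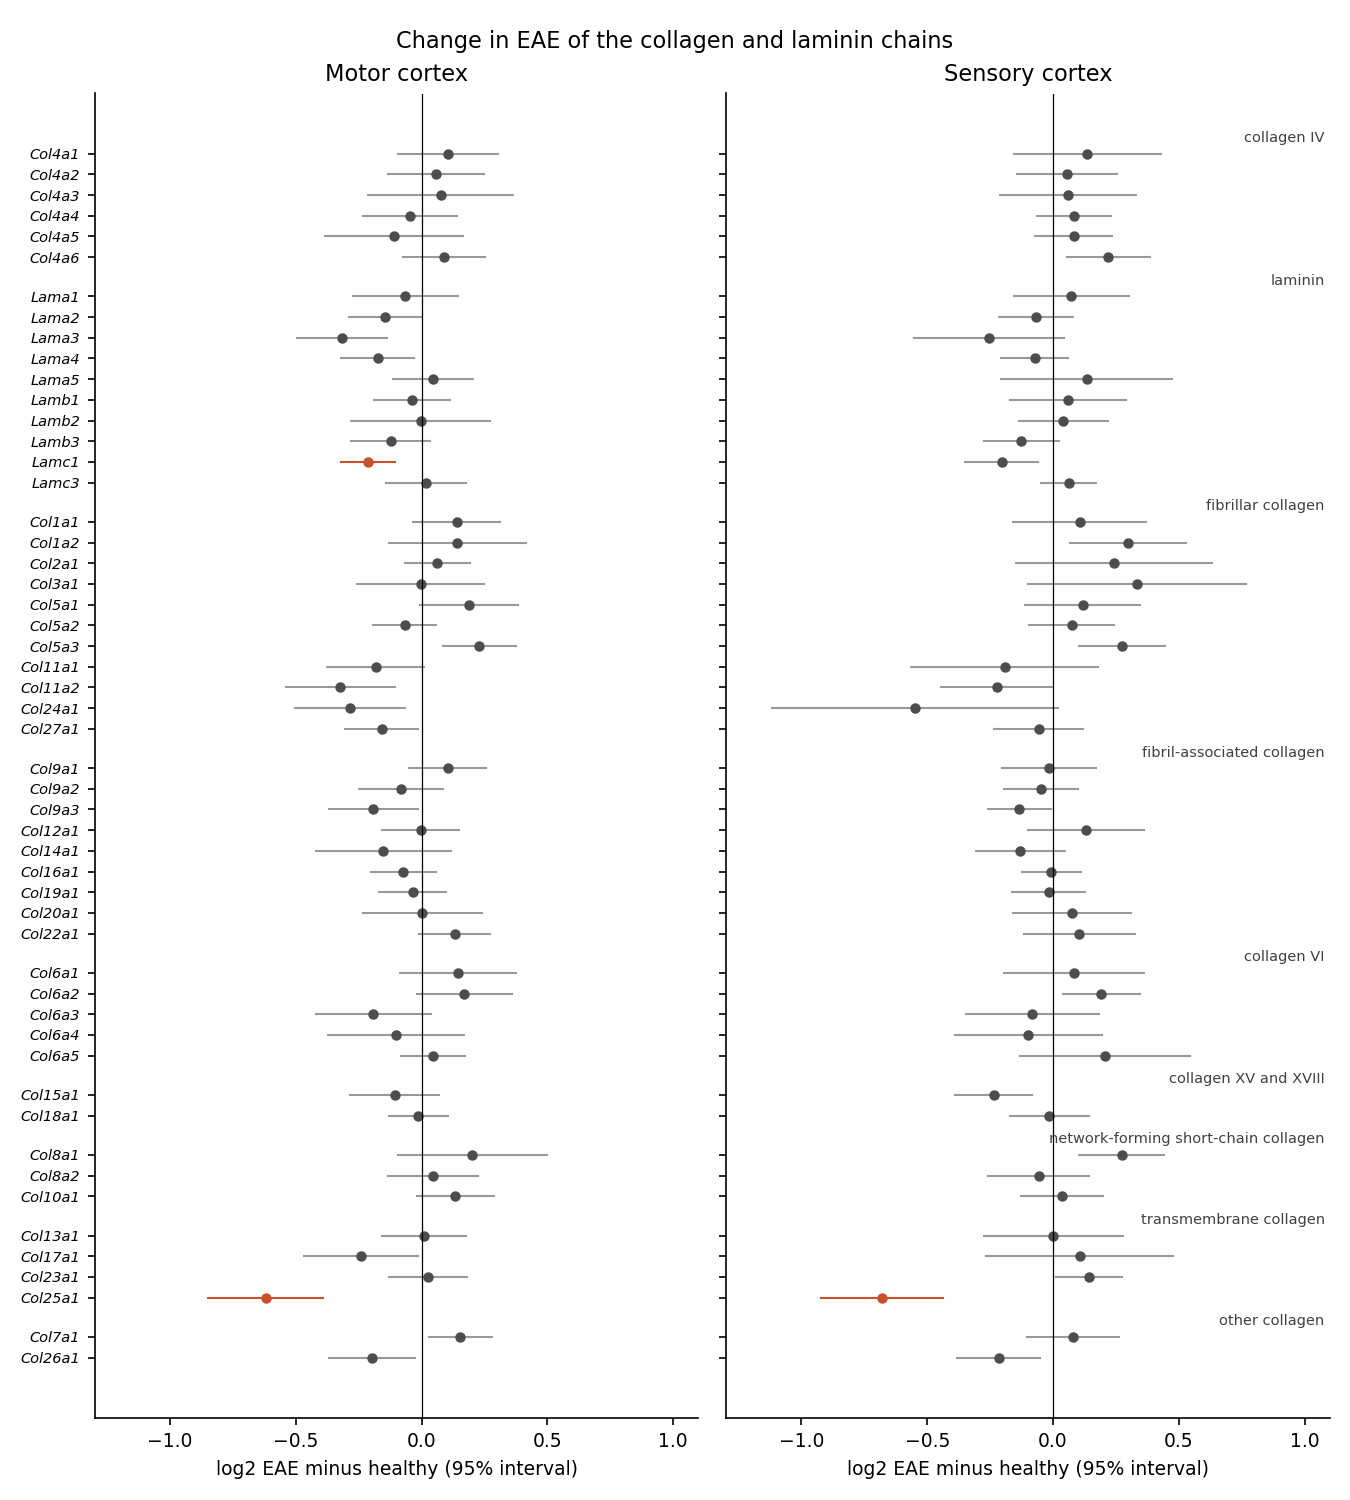
EAE minus healthy difference (log2, 6 against 4 mice) of each chain in motor (left) and sensory cortex (right), by class, with 95% limma intervals; orange marks an adjusted p under 0.05. Col25a1 lies at -0.62 and -0.68, Lamc1 is the other called chain in motor cortex at -0.21, and most intervals include 0.

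None of the 6 collagen IV chains was called in any EAE comparison with limma; 0 of 6 in motor and 1 of 6 in sensory cortex were below an unadjusted p of 0.05. Col4a1, the most widespread of them, was 10.66, 10.70, 10.74 and 10.68 in healthy motor cortex and 10.47, 10.81 and 11.02 (lowest, median, highest) in EAE motor cortex. In sensory cortex it was 10.44, 10.80, 10.77 and 10.68 in healthy mice and 10.55, 10.77 and 11.21 in EAE mice. In motor cortex the EAE arrays of Col4a1 lay on both sides of the healthy ones, with an SD of 0.19 against 0.03. The differences were 0.10 (95% interval -0.09 to 0.30) and 0.14 (-0.16 to 0.43), limma adjusted p = 0.629 and 0.599, and the other probe set gave 0.08 and -0.11.

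Col4a2 differed by 0.06 (-0.14 to 0.25) in motor and 0.05 (-0.14 to 0.25) in sensory cortex. Col4a6, a chain of specialised basement membranes, was the sensory chain below the unadjusted p, at 0.22 (SE 0.07, limma adjusted p = 0.15), and stood at 0.09 in motor cortex. Col4a3, Col4a4 and Col4a5 lay between -0.11 and 0.09 in both regions.

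Laminin chains stood below 0 more often in motor cortex, 8 of 10 with a median of -0.09, than in sensory cortex, 5 of 10 with a median of -0.01, and the difference between the regions was not called for any. Lamc1, the chain shared by nearly all vascular laminins, was 9.54, 9.52, 9.36 and 9.35 in healthy motor and 9.09, 9.25 and 9.34 (lowest, median, highest) in EAE motor cortex. In sensory cortex it was 9.37, 9.55, 9.50 and 9.56 in healthy mice and 9.17, 9.30 and 9.41 in EAE mice. The motor groups are separated by a narrow gap (9.342 against 9.347) and the sensory groups overlap.

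Lamc1 fell by 0.21 in motor cortex (SE 0.05, limma adjusted p = 0.0481) and by 0.21 over both regions (SE 0.04, limma adjusted p = 0.0131), and stood at -0.20 (SE 0.06, limma adjusted p = 0.133) in sensory cortex. The motor call was lost in 17 of 19 alternatives, among them leaving out any 1 mouse other than EAE mouse 4 (adjusted p up to 0.158). The call over both regions was lost without healthy mouse 3 or 4 (-0.21 and -0.20, adjusted p = 0.0504 and 0.0575). The dimmer Lamc1 probe set gave -0.07 in motor and 0.11 in sensory cortex. With the mean of both probe sets the value over both regions was -0.09 (limma adjusted p = 0.286).

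Lama3, an epithelial laminin chain, stood at -0.32 (SE 0.08, limma adjusted p = 0.0716) in motor and -0.25 (SE 0.13, limma adjusted p = 0.345) in sensory cortex, with a second probe set at 0.07 in both. Lama4 was -0.18 (limma adjusted p = 0.221) and -0.07, and Lama2, the laminin chain of the glial basement membrane, -0.14 (limma adjusted p = 0.313) and -0.07. Lama5, the other endothelial alpha chain, was 0.04 and 0.13, and Lamb1 and Lamb2 lay between -0.04 and 0.06. None of these passed.

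Most endothelial markers were lower in EAE beside these vascular chains. Of 12 measured, 4 fell in motor cortex (median -0.25 over the list), and 5 fell and 1 rose in sensory cortex (median -0.28). Over both regions 7 fell, among them Emcn (endomucin) at -0.68 and Tie1, an endothelial receptor kinase, at -0.53. Not all went this way, as 2 of the 12 lay above 0 in motor and 3 in sensory cortex. Slc2a1 stood at 0.32 in motor cortex (limma adjusted p = 0.245), with sensory group means of 11.69 in healthy and 12.17 in EAE mice. The list's mean level was 9.75 to 9.91 in healthy and 9.48 to 9.70 in EAE motor cortex, and 9.84 to 9.97 and 9.57 to 9.76 in sensory cortex, without overlap. Of 12 mural cell markers 0 were called in either region with limma, 4 and 2 being below an unadjusted p of 0.05, and 2 fell over both. The part of vascular content in the laminin values was not tested.

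Among the 11 fibrillar chains Col5a3 was called over both regions and none in a single region with limma. At an unadjusted p under 0.05 there were 4 in motor and 3 in sensory cortex, against 15.9% and 18.5% of all genes. In sensory cortex 7 lay above and 4 below 0, and in motor cortex 5 and 6. The dim Col24a1 was the lowest in sensory cortex at -0.55 and over both regions at -0.42, without passing. Its EAE arrays lay below all healthy ones in 5 of 6 mice in sensory and 4 of 6 in motor cortex. Col5a3, a collagen V chain of restricted expression, was 7.93, 7.72, 7.84 and 7.65 in healthy motor and 7.89, 8.05 and 8.08 (lowest, median, highest) in EAE motor cortex. In sensory cortex it was 7.91, 7.55, 7.69 and 7.54 in healthy mice and 7.85, 7.95 and 8.04 in EAE mice. Healthy mouse 1 was the highest healthy mouse in both regions and lay within the EAE range. Col5a3 rose by 0.25 over both regions (SE 0.06, limma adjusted p = 0.0341), with 0.23 (limma adjusted p = 0.106) in motor and 0.27 (limma adjusted p = 0.0952) in sensory cortex, and the other probe set gave 0.21 and 0.08. The call was lost without EAE mouse 3, 4, 5 or 6 or healthy mouse 2, 3 or 4 (values of 0.20 to 0.28, adjusted p up to 0.127).

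The chains of collagen I and III were not called. Col1a1 stood at 0.14 (95% interval -0.03 to 0.31) in motor and 0.11 (-0.16 to 0.37) in sensory cortex, and Col1a2 at 0.14 (-0.13 to 0.41) and 0.30 (0.07 to 0.53, limma adjusted p = 0.164). Col3a1 stood at -0.005 (-0.26 to 0.25) and 0.33 (-0.10 to 0.77). In sensory cortex Col3a1 was 8.24 in EAE mouse 2 and 8.26 in EAE mouse 4, above all healthy arrays, and 7.27 in EAE mouse 1, within the healthy range. Col11a2 was -0.32 in motor cortex, where all EAE arrays lay below the healthy ones, and -0.22 in sensory cortex, without passing. Fmod (fibromodulin) and Igf2 rose in sensory cortex among the 12 fibroblast and meningeal markers, by 0.84 and 0.60, and Igfbp2 fell in motor cortex by 0.75. Of all genes 0.901% were called higher in sensory and 1.74% lower in motor cortex. Of the 12 markers 10 lay above 0 in sensory cortex (median 0.14) and 6 in motor cortex (median 0.01). Over both regions 0 were called higher and 1 lower with limma, 4 being below an unadjusted p of 0.05.

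Col25a1 showed the largest EAE difference of the 52 chains in both regions. It was 11.53, 11.54, 11.70 and 11.26 in healthy motor cortex and 10.74, 10.82 and 11.25 (lowest, median, highest) in EAE motor cortex. In sensory cortex it was 11.00, 11.33, 11.10 and 11.15 in healthy mice and 10.27, 10.41 and 10.80 in EAE mice. Every EAE array lay below every healthy array of its region, with EAE mouse 1 the highest EAE mouse in both. Col25a1 fell by 0.62 in motor (SE 0.11, limma adjusted p = 0.0111), by 0.68 in sensory cortex (SE 0.11, limma adjusted p = 0.0202) and by 0.65 over both (SE 0.09, limma adjusted p = 0.00364).

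The 2 probe sets of Col25a1 disagreed. The dimmer one, with a mean of 9.31 against 10.94, stood at 0.15 (unadjusted p = 0.117) in motor and 0.16 (unadjusted p = 0.0729) in sensory cortex and at 0.15 (unadjusted p = 0.0183) over both, opposite in sign. The mean of both probe sets gave -0.24 (limma adjusted p = 0.165) in motor, -0.26 (limma adjusted p = 0.0479) in sensory cortex and -0.25 (limma adjusted p = 0.0291) over both. Both the sign and the size of the Col25a1 difference therefore depend on the probe set, and a fall of the gene as a whole is not established. Within cohort 1 the value in motor cortex was -0.59 and within cohort 2 -0.65, of 3 EAE and 2 healthy mice each (limma adjusted p = 0.224 and 0.134); the sensory values were -0.62 and -0.74 (limma adjusted p = 0.978 and 0.0458). In sensory cortex the call was lost without EAE mouse 5 or healthy mouse 2, 3 or 4 (values of -0.68 to -0.63, adjusted p up to 0.0922).

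**Figure D4:**
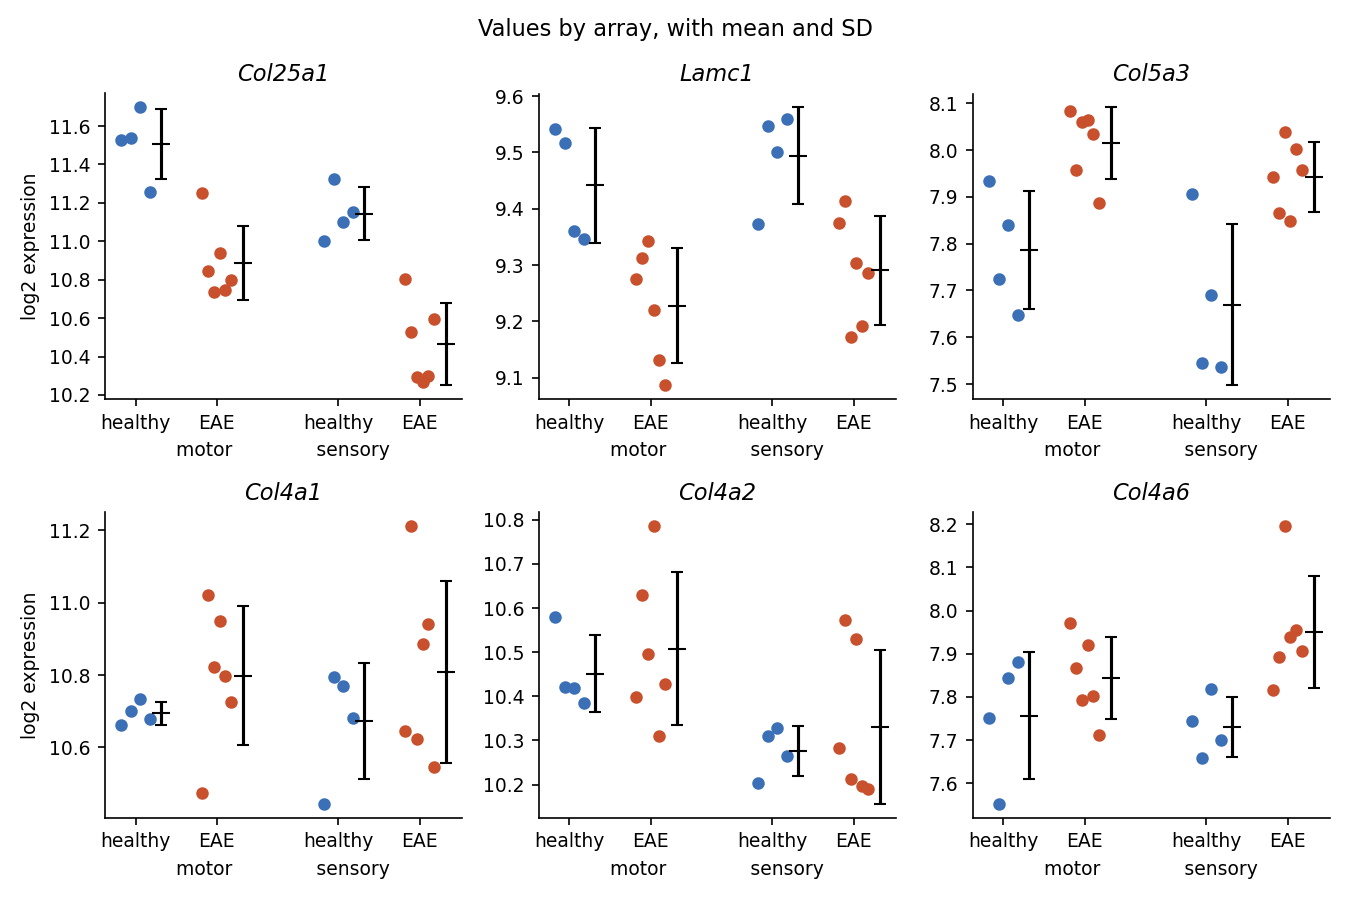
Log2 values of 6 chains by array in healthy (blue, n = 4) and EAE (orange, n = 6) mice for motor and sensory cortex, with mean and SD; each panel has its own vertical range. Col25a1 is lower in every EAE array than in any healthy array of its region, whereas the groups overlap in both regions for Col4a1, Col4a2 and Col5a3.

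Of the 25 chains of the other classes Col25a1 was the only one called in EAE with limma; apart from it 4 in motor and 6 in sensory cortex were below an unadjusted p of 0.05. The ubiquitous collagen VI chains Col6a1 and Col6a2, which form the beaded filaments around vessels, stood at 0.14 and 0.17 in motor and 0.08 and 0.19 in sensory cortex, and their partner Col6a3 at -0.19 and -0.08. Col15a1, which bridges basement membranes to fibrils, was -0.11 in motor and -0.24 (SE 0.07, limma adjusted p = 0.106) in sensory cortex, where all EAE arrays lay below the healthy ones. Col18a1, the precursor of endostatin, was -0.01 in both. Col8a1 was 0.20 and 0.27 (limma adjusted p = 0.52 and 0.0944), and Col26a1 -0.20 and -0.21 (limma adjusted p = 0.236 and 0.159).

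Genes that work with these chains are given list by list. Of all genes 0.517% were called higher and 1.74% lower in EAE in motor cortex. These shares were 0.901% and 1.51% in sensory cortex and 2.23% and 5.64% over both. A single call in so short a list is given for that gene and not for the list. Of 12 basement membrane partners, 1 rose and 1 fell in motor cortex, 1 rose in sensory cortex, and 1 rose and 2 fell over both. Sparc, a collagen-binding matricellular protein, rose by 0.46 in motor (group means 12.26 and 12.72) and 0.60 in sensory cortex, with limma adjusted p = 0.00885 and 0.00719. Nid2, a nidogen that links laminin and collagen IV networks, fell by 0.38 in motor cortex (limma adjusted p = 0.0291), and Ntn4, a laminin-related netrin of vessels, by 0.35 over both regions (limma adjusted p = 0.0231). Nid1 and Hspg2 (perlecan), the other linkers, stood between -0.14 and 0.14, and Fn1 (fibronectin) at 0.17 and 0.28 (limma adjusted p = 0.228 and 0.0817).

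Of 20 genes of collagen synthesis and crosslinking, 0 rose; 1 fell in motor, 2 in sensory cortex and 3 over both. Plod1, a lysyl hydroxylase of collagen, fell by 0.35 and 0.31 in the regions (limma adjusted p = 0.0468 and 0.0238), Loxl1, a lysyl oxidase, by 0.25 in sensory cortex (limma adjusted p = 0.0437), and P4ha1, a prolyl hydroxylase subunit, by 0.27 over both (limma adjusted p = 0.032). Serpinh1, the collagen chaperone, stood at -0.30 and -0.16 (limma adjusted p = 0.142 and 0.384).

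Of 14 collagen and laminin receptors 0 passed in a single region with limma, 5 and 4 being below an unadjusted p of 0.05, and 2 fell over both. These were Itga6 and Itgb4, the subunits of a laminin receptor, at -0.33 and -0.34 (limma adjusted p = 0.0432 and 0.00224). The mean level of the 14 receptors was 9.02 to 9.08 in healthy and 8.90 to 8.97 in EAE motor cortex, and 9.05 to 9.13 and 8.94 to 9.01 in sensory cortex. Oligodendrocyte markers were lower in the same arrays: of 7, 3 fell in motor and 1 in sensory cortex, with mean levels of 11.80 to 12.19 in healthy and 11.50 to 11.73 in EAE motor cortex, and 11.93 to 12.03 and 11.47 to 11.95 in sensory cortex. Of 7 microglia and macrophage markers, 3 fell in motor and 1 in sensory cortex, while 2 lay above 0 in each region. Their mean level was 9.90 to 10.06 in healthy and 9.48 to 9.73 in EAE motor cortex. In sensory cortex it was 9.82 to 10.04 in healthy and 9.30 to 9.82 in EAE mice. The part of either cell type was not tested.

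Of 15 matrix proteases and inhibitors, 1 fell in motor cortex and 0 passed in sensory cortex with limma (5 at an unadjusted p under 0.05), and 1 rose and 1 fell over both. Adamts4, a proteoglycan-cleaving protease that is also expressed in oligodendrocytes, fell by 0.67 in motor cortex (limma adjusted p = 0.015), and Timp1, an inhibitor of matrix metalloproteinases, rose by 0.32 over both (limma adjusted p = 0.0165). Of 14 genes of TGF-beta signalling, the pathway that drives collagen synthesis in fibroblasts, 1 fell in motor cortex, 1 rose in sensory cortex, and 1 rose and 4 fell over both. Tgfbr1, a receptor, fell by 0.46 in motor cortex (limma adjusted p = 0.00251) and Ccn2, a matricellular target of the pathway, rose by 0.48 in sensory cortex (limma adjusted p = 0.0376). Over both regions Tgfbi, a target as well, rose by 0.23 and the ligands Tgfb1 and Tgfb3 fell by 0.25 and 0.22.

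Some of these partner genes also differed by region, in both directions. Bmp1, the protease that trims fibrillar procollagens, was lower in motor cortex by -0.42 (limma adjusted p = 0.00598) in healthy and -0.40 (limma adjusted p = 0.00118) in EAE mice, and Ntn4 by -0.45 (limma adjusted p = 0.00726) and -0.48 (limma adjusted p = 0.000701). Timp2, an inhibitor of matrix metalloproteinases, was higher in motor cortex by 0.23 (limma adjusted p = 0.0388) in healthy and 0.22 (limma adjusted p = 0.0106) in EAE mice. In EAE mice its relatives Timp3 and Timp4 were lower in motor cortex by -0.24 and -0.25 (limma adjusted p = 0.0086 and 0.00852), and so was Ddr1, a collagen receptor kinase, by -0.20 (limma adjusted p = 0.0312). In healthy mice these 3 stood at -0.12, -0.19 and -0.02 without passing. None of the 14 TGF-beta genes was called by region with limma, 1 in healthy and 5 in EAE mice being below an unadjusted p of 0.05.

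Chains of related molecules were compared across the 10 mice in 6 pairs, as deviations from the group means averaged over both regions. All pairs but Col1a1 and Col3a1, whose products form separate molecules that share fibrils, are chains of one molecule. Col4a5 and Col4a6 had a Pearson r of 0.739 (permutation p = 0.0142, adjusted over the 6 pairs 0.0427) and a Spearman rho of 0.661 (permutation p = 0.0436, adjusted 0.131), and Col1a1 and Col3a1 0.768 (permutation p = 0.0115, adjusted 0.0427) and 0.77 (permutation p = 0.0124, adjusted 0.0747). Without the 2 mice farthest from the median of the first gene these r were 0.652 and 0.594 (exact permutation p = 0.0772 and 0.122), so neither passed without them. That choice of mice narrows the range of the first gene. Col4a1 and Col4a2, the closest partners, had 0.623 (permutation p = 0.0563, adjusted 0.113; rho 0.588, permutation p = 0.0807), and Col4a3 and Col4a4, Lamb1 and Lamc1, and Col1a1 and Col1a2 had 0.488, 0.357 and -0.233 (permutation p = 0.156, 0.315 and 0.51). Without 2 mice chosen in the same way these pairs had, in that order, 0.416, 0.694, 0.601 and -0.674. None passed (exact permutation p = 0.323, 0.0562, 0.109 and 0.072). Within the 6 EAE mice the r of Col1a1 and Col3a1 was 0.839 (exact permutation p = 0.0472, adjusted 0.283), and that of Col4a5 and Col4a6 0.53 (exact permutation p = 0.276, adjusted 0.553). No correlation was computed within the cohorts, which hold 5 mice each.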

How the data were processed

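The deposited values are log2 expression of 45101 probe sets on 20 arrays, from 3.79 to 15.07. The submitters' processing notes name RMA and Partek (no versions given in the sources used here). This method subtracts background and normalizes and summarises probes, which compresses differences at low signal. The number of arrays limits the precision. Of the probe sets 34958 had 1 gene symbol, 932 several and 9211 were not listed; the brightest probe set of each of 18194 genes was used. All 52 chains matched the RefSeq gene table by Entrez identifier.

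Tests used limma 3.58.1 in R 4.3.3 on all genes (two-sided, Benjamini-Hochberg adjusted p under 0.05), with cohort as a covariate for EAE against healthy and the mouse as a block for motor against sensory cortex; over both regions each mouse's 2 arrays were averaged. The labels' animal numbers give the 2 arrays of a mouse, and deviations from group means correlated at 0.163 to 0.587 within a mouse, except EAE mouse 3 at -0.0316. Correlations used 100000 permutations, or all of them for under 10 mice. The tests were checked on simulated data with independent noise for each array and no mouse or cohort effect. That check therefore does not cover arrays that correlate within a mouse or differ by cohort.

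Members, partner lists and marker lists were chosen with earlier results of these data known. Values are named for chains called in any comparison and the 4 collagen IV, laminin and fibrillar chains with the smallest p over both regions; any other chain named was picked with its values in view. Among partners, those called by region and each list's genes of smallest p are named, and Sparc, Nid1, Hspg2, Fn1 and Serpinh1. Alternatives were quantile normalization, a filter on low means, the mean of a gene's probe sets, a trended prior, other handling of cohort, chip day and replicate block, and leaving out each mouse.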

Additional observations from a re-analysis of the deposited data

Results flagged for a closer look

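Among 84 groups of 4 or 6 arrays of the 21 chains named by rule, 3 (3.57%) held an array that stood apart by Dixon's test, where chance gives about 1 in 20. In sensory cortex of EAE mouse 3 Col4a3 was 7.89, with the next array at 7.46, and Col4a6 was 8.20, with the next at 7.96. In motor cortex of healthy mouse 1 Lama4 was 8.54, with the next at 8.39.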

How the results depend on the processing

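No called difference of a chain reversed in the alternatives, which did not include the dimmer Col25a1 probe set alone. Class medians near 0 did change sign in some fits without 1 mouse. These were the fibrillar median in motor cortex (-0.005 with all mice) and the basement membrane median over both regions (0.015). Leaving out 1 mouse at a time gave 145 to 470 genes and 1 to 2 chains called in motor cortex (EAE). The counts were 19 to 1009 and 0 to 2 in sensory cortex, and 472 to 1813 and 1 to 6 over both. They were 263 to 914 and 4 to 8 for the healthy regional contrast, and 870 to 1401 and 8 to 13 for the EAE one. For the difference of effects they were 0. The median of the basement membrane chains then ran from -0.071 to -0.004 (motor), 0.009 to 0.076 (sensory) and -0.003 to 0.028 (both), that of the fibrillar chains from -0.067 to 0.06, 0.062 to 0.112 and 0.073 to 0.131. Without the second chip day motor, sensory and healthy regional calls were 194, 118 and 115 genes, and 1 chain each in motor cortex and the healthy contrast. Within cohort 1, calls were 9 genes (motor), 0 (sensory) and 0 (both), and 0 chains in each; within cohort 2, 16, 141 and 574, with 0 chains in motor cortex. The fibrillar median was -0.074, 0.187 and 0.057 in cohort 1, and 0.043 (sensory) and 0.091 (both) in cohort 2. In motor cortex 0 chains were called with the mean of probe sets (fibrillar median over both 0.075), 1 with a trended prior and 1 without the cohort term; sensory genes were 671 after the low-value filter and 800 with a trended prior. The cause of these shifts was not tested, beyond the fewer samples or genes. An EAE and a healthy mouse that share a number are not the same animal: with the number as a replicate block 145, 6 and 64 genes and 0 chains were called in motor, sensory and both, with fibrillar medians of 0.045 (motor) and 0.045 (both), and same-numbered mice did not correlate throughout (-0.25 to 0.397). Without the mouse block the EAE regional contrast called 6 chains. Without 2 mice the correlations of Col4a5 with Col4a6 (0.652) and Col1a1 with Col3a1 (0.594) lost their call. Dim probe sets limit Col6a5, Col17a1, Col8a2, Col4a4 and Col24a1 most.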
